A study of Mus musculus with 16 samples.

Results

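The wild-type cerebellum at 3 weeks of age was described from 4 Agilent one-colour arrays, which are 4 of the 16 samples of the series. The members are the arrays whose titles name wild-type control cerebellum on this platform. The mice were Npc1+/+ animals of the Npc1 (BALB/cNctr-Npc1m1N/J) line on a BALB/c background, whose breeders were heterozygous, and the labels name no drug or other treatment. Cerebella were frozen in liquid nitrogen, and 500 ng of total RNA, isolated with TRIzol and purified on RNeasy columns, was labelled with Cy3 for each array. The labels name 4 wild-type mice, but not which mouse was on which array, so the spread given here is that between these samples. No genotype was compared and no test was made, because all 4 arrays belong to 1 group.

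The cerebellum is built from a few well known cell types. Granule cells, the small excitatory neurons of the inner layer, outnumber all others, Purkinje cells carry the output of the cortex to the deep nuclei, and Bergmann glia, oligodendrocytes, microglia and vessels complete the tissue. In mice at weaning, granule cell production in the outer layer has ended or is ending and myelination is under way. In RNA from whole tissue, fewer cells of a type and less RNA per cell cannot be told apart.

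Signals are on a log2 scale on which 0 is the 75th percentile of the spots of that array, and SDs are over the 4 arrays. The 75th percentile of the raw signal was 1163, 754, 852 and 946 intensity units on arrays 1 to 4, and no spot was saturated. Array 2 stood apart before any gene was considered. The SD of its negative controls was 10.4 intensity units, against 2.59 to 3.00 on the others, and its dark spots lay at -5.94, against -7.90 to -7.74. Dark spots of array 2 were also raised in 2 separate areas, rows 2 to 56 by columns 1 to 47 and rows 82 to 264 by columns 49 to 67 of a grid of 532 rows by 85 columns. These areas held 2311 of the 43379 spots, 5.33% of the array, with a median lift of 2.35 log2 units, where a lift over 1 was called raised. The same measure marked 417, 400 and 1091 spots on arrays 1, 3 and 4, with median lifts of 1.17 to 1.25. Array 2 was scanned on another day than the other 3 and was the only array with Xist signal, so scan day and that sample cannot be told apart. Results that rest on raised spots are given with and without them.

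**Figure D1:**
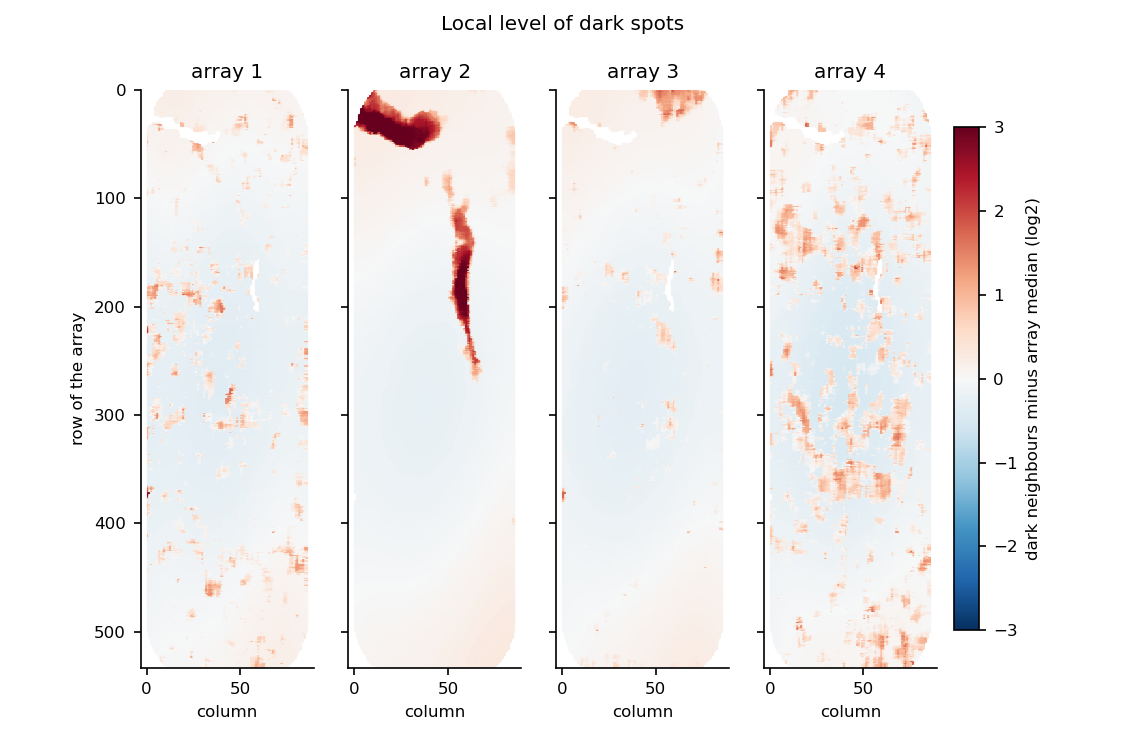
Local level of dark spots on each wild-type array. Each point is a spot at its row and column, coloured by the median of dark neighbouring spots minus the array's own dark level (log2); blank places had too few dark neighbours. Array 2 carries 2 compact raised areas, while arrays 1, 3 and 4 show small scattered patches.

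Of 27670 genes, each represented by its brightest probe, 14753 (53.3%) were well above background on all 4 arrays and 8215 (29.7%) on none. Of 41174 probes, 21542 (52.3%) were above background on all 4 arrays. Array 2 gave the fewest probes above background, 22182 against 27499, 26003 and 27906 on arrays 1, 3 and 4. Of 4049 probes above background on exactly 3 arrays, 3923 were missing on array 2. Of 416 probes above background on array 2 alone, 355 lay in its raised areas. Protein-coding genes of the reference table were above background on all 4 arrays in 66.9% of cases, and long noncoding RNA genes in 22.2%.

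Neuronal identity genes of the cerebellar cortex were detected almost in full. All 15 granule cell genes and all 16 Purkinje cell genes were above background on all 4 arrays. Cbln1, a secreted synaptic organizer of granule cells, read 6.94, 6.82, 7.07 and 6.98 on arrays 1 to 4 (SD 0.10). Gabra6, the GABA receptor subunit particular to granule cells, read 4.58, 4.44, 4.99 and 4.65 (SD 0.23). Both genes were lowest on array 2 and highest on array 3. Zic2, a transcription factor of the granule lineage, spread more, with 0.90, -0.73, -0.41 and 0.00 (SD 0.71), highest on array 1. Among Purkinje cell genes, Itpr1, the calcium release channel, read 6.73, 6.51, 6.33 and 6.43 (SD 0.17), and the calcium buffer Calb1 read 5.98, 5.76, 6.37 and 6.01 (SD 0.25). Slc1a6, the glutamate transporter of Purkinje cells, read 6.27, 6.28, 6.78 and 6.41, and Pcp4, a calmodulin regulator, read 6.10, 5.86, 6.44 and 6.11. Calb1, Slc1a6 and Pcp4 were highest on array 3, while Itpr1 was lowest there.

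Of 13 genes of inhibitory interneurons, 10 were above background on all 4 arrays. Slc32a1, the vesicular transporter of GABA and glycine, read 5.98, 5.93, 6.30 and 6.11, with its array 2 spot in a raised area. Slc6a5, the glycine transporter of glycinergic neurons, read -1.23, 0.35, -1.24 and -0.89, and only array 2 was above 0. Unipolar brush cells are excitatory interneurons concentrated in the vestibular lobules. Of 3 genes listed for them, 2 were above background on all 4 arrays. Eomes read 0.17, -0.48, -0.58 and -1.28, and Calb2 read 3.14, 3.21, 3.53 and 3.50. The 2 genes differed in order, since Eomes was highest on array 1 and Calb2 lowest there. Lmx1a was above background on array 2 only, with its spot in a raised area. Of 8 granule cell precursor genes 6 were above background on all 4 arrays, among them the homeobox gene Barhl1 at a mean of 0.83 and the cyclin Ccnd1 at 0.13. Atoh1, the transcription factor that defines these precursors, was above background on no array. Cell division genes were above background on all 4 arrays for 3 of 12 members. The proliferation gene Mki67 read -3.00, -2.79, -3.17 and -2.41, and Ccnb1 and Aurkb were above background on no array.

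All 17 astrocyte and Bergmann glia genes, all 16 genes of myelinating oligodendrocytes and all 11 genes of their precursors were above background on all 4 arrays. The matricellular protein Sparcl1 read 7.77, 7.90, 7.65 and 7.89. The brightest probe of the glycolytic enzyme Aldoc read 7.04, 7.11, 7.32 and 7.12, with its array 2 spot in a raised area. The other Aldoc probe had a mean of 2.22. Mbp, the basic protein of myelin, read 7.09, 7.35, 6.92 and 7.15, highest on array 2 and lowest on array 3. Microglia were represented by 15 of 17 genes on all 4 arrays, endothelium by 14 of 14 and mural cells by 9 of 9. Cldn5, a tight junction protein of vessels, read 2.64, 2.94, 2.72 and 2.86.

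Genes listed for tissue next to the cerebellum were also detected, and whether their RNA came from that tissue was not tested. Of 15 choroid plexus genes 13 were above background on all 4 arrays, and the defining transporter Ttr read 0.77, 1.31, 0.59 and 1.00. Of 12 meningeal genes 11 were, and Ptgds, an enzyme of prostaglandin synthesis, read 4.93, 5.23, 5.33 and 4.94, with its array 2 spot in a raised area. Genes of other tissues were mostly dark: 1 of 8 liver genes, 1 of 8 testis genes, 0 of 5 photoreceptor genes and 1 of 6 pancreas genes were above background on all 4 arrays. Albumin (Alb) was on none. Of 901 olfactory receptor genes 19 were above background on all 4 arrays and 710 on none. Of 10 forebrain genes 5 were above background on all 4 arrays and 4 on none, among them the interneuron factors Dlx1 and Dlx5. Of all genes 53.3% were above background on all 4 arrays, and of named genes 66.9%. The lists of granule cells, Purkinje cells, inhibitory interneurons and glia lay above both shares. So did the choroid plexus and meningeal lists. Unipolar brush cells, with 2 of 3, lay above the share of all genes but not above that of named genes. The liver, testis, photoreceptor, pancreas and olfactory receptor lists lay far below both shares. Forebrain genes, with 5 of 10, lay only slightly below the share of all genes.

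**Figure D2:**
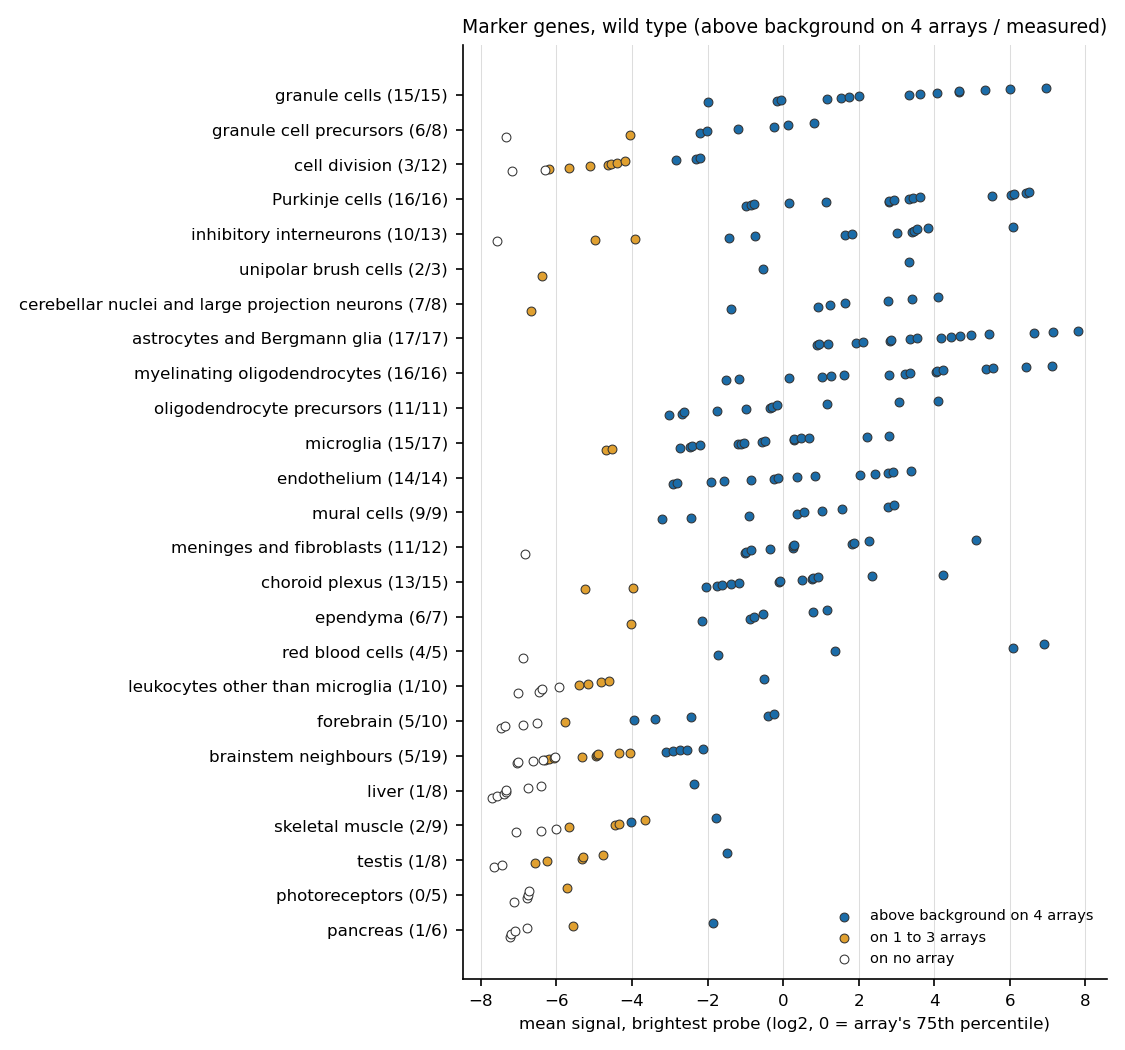
Mean signal of each marker gene over the 4 wild-type arrays (log2, 0 is the array's 75th percentile), by list. Filled blue points are above background on 4 arrays, orange on 1 to 3 and open on none, and the counts beside each name are members on 4 arrays over members measured; granule cell, Purkinje cell, astrocyte and oligodendrocyte genes are blue throughout, and 7 of 8 liver and 4 of 5 photoreceptor genes are open.

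The brightest probes are ordered here as probes, since brightness depends on the probe as well as on the transcript. The named genes with the brightest probes were, as the files annotate them, Lars2, a mitochondrial leucyl-tRNA synthetase, at 9.07 ± 0.19 (SD, n = 4), Pigt, a subunit of the GPI transamidase, at 8.83 ± 0.15, and Ptprz1, a receptor phosphatase of glia, at 8.37 ± 0.14. Which transcript a bright probe detects was not tested for any of the 25 genes, Lars2, Pigt, Ptprz1 and Grn included. The values here are therefore those of the probes and not of the genes named. Next came the glycolytic enzyme Aldoa at 8.23 ± 0.12, Cox6a1, a subunit of cytochrome oxidase, at 8.02 ± 0.15, and Grn, which encodes progranulin, at 8.02 ± 0.09. The other 19 of the 25 brightest lay between 7.02 and 7.80, among them Ckb, Mdh2, Ubb, Fth1, Apoe, Calm2, Rplp1 and Cox8a, genes of energy supply, protein turnover, iron storage, lipid transport, calcium signalling and translation.

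For 15 of these 25 genes the array holds another probe. For 6 of them, Chgb included, the brightest probe exceeded the next by more than 4 log2 units. Among named genes with 2 or more probes above background on all 4 arrays, such a gap held for 541 (11.1%). The median gap in that set, which leaves out Chgb, was 1.57. The gap was 11.09 for Pigt and 6.10 for Grn. Chgb had a dim second probe that was above background on 3 of 4 arrays, so that its gap is not given. The first 30 bases of both 60-base probes are shown for these 3 genes, because the order of brightness rests on which stretch was printed on the array; capitals mark CpG pairs.
Chgb, 7.24: tagCGtgacttgtagCGtattcttcctgca
Chgb, -4.36: gaggatgctctatactagtaatttgtaaac
Pigt, 8.83: ccccctCGatgctcttagctgagtgtccCG
Pigt, -2.26: ctgatggctccagctactttgtcCGactct
Grn, 8.02: atggccactgtcctgctggctattcttgtc
Grn, 1.92: tccactgttcagccaggggaaccaagtgtt
In the mm7 build of the files these probes lie at chr2:132535820-132535879 and chr2:132524707-132524766 for Chgb, chr17:38065479-38065538 and chr17:38064637-38064696 for Pigt, and chr11:102542316-102542375 and chr11:102545417-102545476 for Grn, each given on the plus strand. The bright Pigt probe holds 5 CpG pairs, and 0.843% of all probes hold as many. Pigt is also the 1 gene of the 25 whose chromosome in the files differs from that in the reference table, which was so for 0.229% of 32346 probes with both.

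The 4 arrays were alike across genes. Pearson's r over the 14753 genes ranged from 0.976 (arrays 1 and 3) to 0.991 (arrays 3 and 4), given as a description across genes. The median absolute difference ran from 0.17 (arrays 2 and 4) to 0.28 (arrays 1 and 3). Array 2, scanned on another day, had r of 0.988 with array 1, 0.977 with array 3 and 0.988 with array 4. Bright genes were shifted on array 3: in the brightest eighth of the genes the median deviation from the 4-array mean was 0.17 on array 3 and -0.10 on array 1, and in the dimmest eighth it was -0.27 on array 3 and 0.19 on array 2.

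The SD of a gene over the 4 arrays had a median of 0.18, with quartiles of 0.13 and 0.26. It exceeded 0.5 for 1169 genes (7.92%). For 4.79% of the genes 1 array lay apart from the other 3, by Dixon's ratio of the gap to the whole range. The SD was 0.35 at the median in the dimmest eighth of the genes and 0.17 in the brightest. For 153 probes printed 10 times and above background on all 4 arrays, the median SD between arrays was 0.18, and that between spots of 1 array was 0.05 to 0.07. The ratio of the former to the latter was above 1 for 144 of them. The most variable of these repeated probes was Fos.

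**Figure D3:**
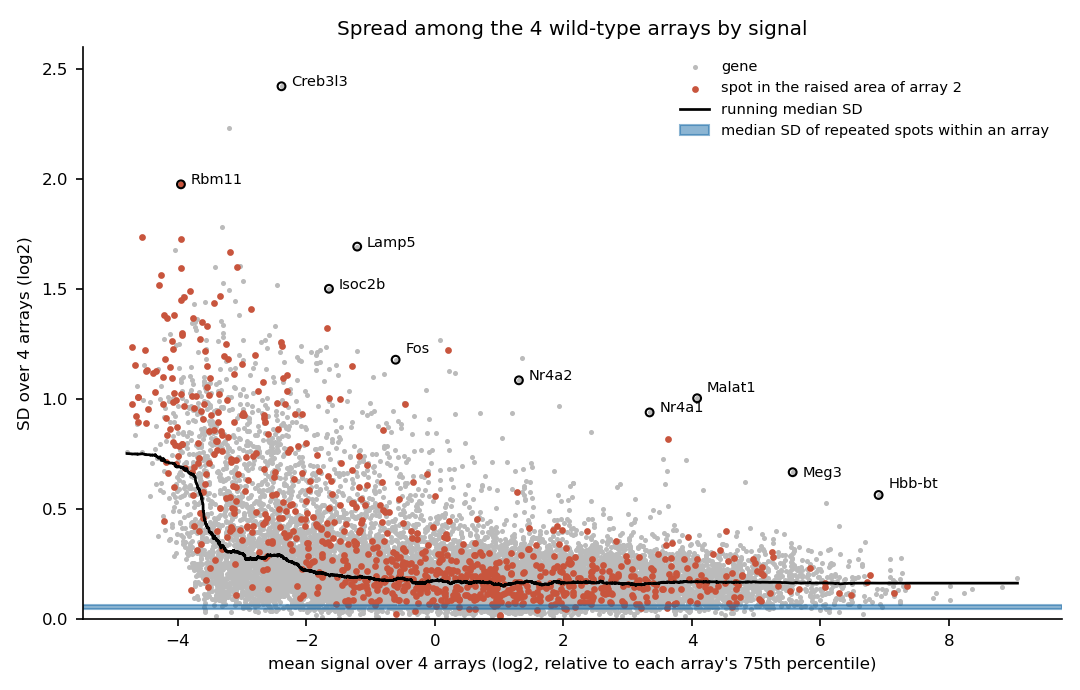
SD over the 4 arrays against mean signal (both log2) for the genes above background on 4 arrays. Red points have their array 2 spot in a raised area, the black line is the running median and the blue band the range over arrays of the median SD between repeated spots; many dim genes with a large SD are red, and the labelled bright genes Malat1, Meg3, Nr4a1 and Hbb-bt stand above the line.

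By their brightest probes, the least variable named genes were Atad5, a replication factor, with an SD of 0.01 and signals from -1.77 to -1.74, and Trit1, a tRNA modifying enzyme, with an SD of 0.01. Tubgcp6, Slc38a2, Plaa, Atg2b, Scaper, Chaf1b, Suox and Ppp1r12c followed, all at 0.01. Other probes of the same genes spread more: a second Atad5 probe above background on all 4 arrays had an SD of 0.81, and probes of Scaper and Slc38a2 had SDs of 0.45 and 0.39. The ranking is therefore one of probes. Among widely used reference genes, 11 of 11 were above background on all 4 arrays with a median SD of 0.16, and Hsp90ab1 spread most at 5.78, 6.20, 6.54 and 6.06.

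The most variable named gene was Creb3l3, a membrane-bound transcription factor, at -0.32, -0.29, -4.12 and -4.82 (SD 2.42). Arrays 1 and 2 were high and arrays 3 and 4 low, with nothing between. Isoc2b read -3.02, -0.35, -2.88 and -0.35, high on arrays 2 and 4, and Mnd1, a meiotic recombination factor, read -3.76, -1.27, -1.43 and -3.53, high on arrays 2 and 3. Each of these 3 genes has 1 probe on the array, and none of the spots lay in a raised area. Rbm11, Liph, Sohlh2, Gcnt2, Ankef1 and Fcna also ranked among the 10 most variable, with the array 2 spot in a raised area for each. Rbm11 read -4.74, -1.01, -5.27 and -4.80. Without raised spots, 11 of the 25 most variable named genes stayed in the ranking, and genes such as Fos, Nr4a2, Tdg and Slc4a1 entered it.

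Genes with 2 or more probes above background on all 4 arrays allow a second look at spread. Of 4876 such named genes, the smaller SD of the probes exceeded 0.5 for 24 (0.492%). Every probe had the same highest and lowest array for 13 of these 24, against 20.1% of the 4876. Gabra5, a GABA receptor subunit, led with SDs of 0.82 on both probes, which read -3.55, -2.74, -4.69 and -3.31, and -3.90, -2.49, -4.29 and -3.01. Cartpt, a neuropeptide precursor, read -2.20, -0.94, -2.24 and -1.19, and -1.71, -0.39, -1.85 and -0.78. All 4 probes were highest on array 2 and lowest on array 3.

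Several long noncoding RNAs stood in this ranking. For Malat1, Neat1, Meg3, Snhg11, Mirg, Rian and Kcnq1ot1, a group chosen after its values were seen, 17 of 18 probes were lowest on array 3, against 29.5% of all probes, and the exception was 1 of 2 Rian probes. The count was 17 under each other scaling tried, while the share of all probes lowest on array 3 ran from 10.4% to 40.3%. Because the group was chosen from these values, the count is a description and no test. A low array 3 was not particular to these RNAs. Of the 24 genes with the smaller SD over 0.5, 16 were lowest on array 3 on every probe, Uvssa, Nrxn3 and Ddx23 among them. Malat1, of nuclear speckles, read 5.14, 4.53, 2.80 and 3.85 on its brightest probe. Meg3, an imprinted RNA, read 6.12, 6.08, 4.72 and 5.34. Mirg, of the same imprinted cluster, read 1.68, 1.11, -0.51 and 0.53, and Neat1, of paraspeckles, 1.42, 2.05, 0.45 and 1.06. Arrays 1 and 2 were high, array 4 between and array 3 low for each of these 4 genes. Over the 18 probes the median deviation was 0.78, 0.57, -1.17 and -0.17. Ribosomal protein genes moved the other way on array 3: 74 of 82 were highest there, against 45.1% of all genes, with a median deviation of 0.26, or 0.10 relative to genes of like signal. With quantile normalization 58 of 82 were highest on array 3, against 38.7% of all genes. RNA quality was not given in the sources used here, and its part in these values was not tested.

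**Figure D4:**
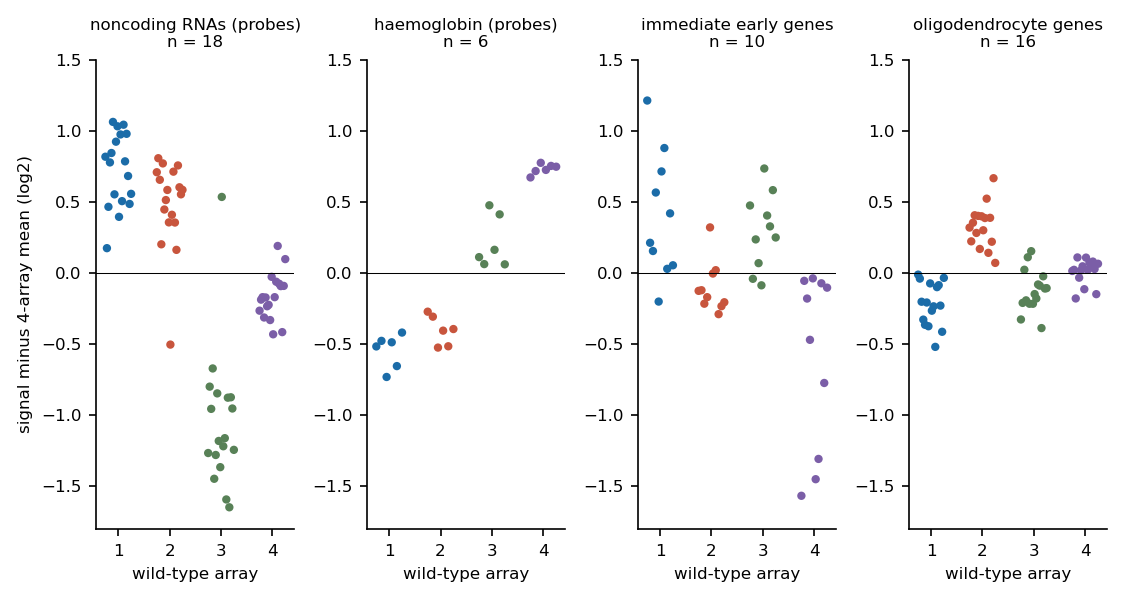
Signal minus the 4-array mean (log2) on each wild-type array for probes of 7 noncoding RNAs, probes of Hba-a1 and Hbb-bt, immediate early genes and oligodendrocyte genes. Each point is 1 probe or gene and n is their number; noncoding RNAs are low on array 3, haemoglobin is high on array 4, several early genes are low on array 4 and oligodendrocyte genes are high on array 2.

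Immediate early genes, which neurons switch on within minutes of activity, spread widely. The transcription factor Fos read 0.60, -0.74, -0.14 and -2.18 (SD 1.18), and the orphan nuclear receptor Nr4a1 4.22, 3.36, 3.75 and 2.03 (SD 0.94). Npas4, an activity-dependent factor of neurons, read -1.54, -2.26, -1.52 and -3.71, and the phosphatase Dusp1 1.90, 1.24, 2.06 and 0.70. Of 10 early genes above background on all 4 arrays, 5 were lowest on array 4, these 4 among them, against 11.4% of all genes. Another 4 were lowest on array 2, against 28.0% of all genes. Arc, a synaptic protein, did not share the order and read 1.00, 1.52, 1.11 and 1.16. The clock gene Per1, which is also inducible, read 2.45, 2.19, 2.53 and 1.22.

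The 250 bases before the start of Fos, Nr4a1 and Npas4 are shown because the 3 genes moved together. They are from RefSeq (GRCm38.p6), and capitals mark TGACG, the core of the cAMP response element, on either strand (CGTCA on the other).
Fos, chr12:85473640-85473889, plus strand: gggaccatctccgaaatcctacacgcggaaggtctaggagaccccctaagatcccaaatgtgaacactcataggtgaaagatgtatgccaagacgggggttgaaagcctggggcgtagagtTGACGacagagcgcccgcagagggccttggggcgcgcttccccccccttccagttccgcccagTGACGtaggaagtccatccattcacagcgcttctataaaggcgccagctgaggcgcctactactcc
Nr4a1, chr15:101266596-101266845, plus strand: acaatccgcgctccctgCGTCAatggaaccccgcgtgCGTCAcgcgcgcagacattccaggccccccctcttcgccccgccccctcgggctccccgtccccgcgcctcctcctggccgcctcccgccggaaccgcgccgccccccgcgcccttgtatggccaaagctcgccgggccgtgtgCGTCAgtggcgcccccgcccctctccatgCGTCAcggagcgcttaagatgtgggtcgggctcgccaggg
Npas4, chr19:4989972-4990221, minus strand: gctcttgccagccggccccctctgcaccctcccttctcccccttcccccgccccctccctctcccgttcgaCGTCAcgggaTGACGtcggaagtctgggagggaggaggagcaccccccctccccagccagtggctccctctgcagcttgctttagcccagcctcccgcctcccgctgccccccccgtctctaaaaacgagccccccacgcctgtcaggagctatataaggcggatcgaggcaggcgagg
The letters occur 2 times for Fos, 4 times for Nr4a1 and 2 times for Npas4. Among 32851 promoters of this length, 17.8% held at least 1 match, and 12 of 14 promoters of the 10 early genes found there did. A match is a description of the sequence and not a site.

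Red blood cell genes had a median SD of 0.58, above that of every other list of cells of the tissue. Of 5 genes 4 were above background on all 4 arrays, each with an SD over 0.5. The beta globin gene Hbb-bt read 6.42, 6.50, 7.07 and 7.63 and the alpha globin gene Hba-a1 5.61, 5.78, 6.15 and 6.80. Alas2, the haem synthesis enzyme of red cells, read 0.81, 1.00, 1.59 and 2.14. All 6 globin probes and Alas2 were highest on array 4 and lowest on array 1, while Slc4a1, the anion exchanger, was highest on array 3 at -0.49. The summed level of the list, relative to the 75th percentile, was 136, 148, 209 and 315. Other leukocytes were nearly dark, with 1 of 10 genes, S100a9, above background on all 4 arrays. How far residual blood bears on other genes was not tested.

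Oligodendrocyte genes and 5 of 7 genes listed for projection neurons, neurofilament genes among them, were highest on array 2. Of 17 astrocyte and Bergmann glia genes, 3 were highest on array 2 and 11 on array 3, against 22.0% and 45.1% of all genes. Relative to genes of like signal, the median deviation of the astrocyte list on array 3 was 0.03. All 16 oligodendrocyte genes were highest on array 2, with median deviations of -0.22, 0.34, -0.13 and 0.03. Relative to genes of like signal these were -0.13, 0.39, -0.27 and 0.03. The iron carrier Trf read 2.94, 4.02, 3.24 and 3.21, with arrays 1, 3 and 4 close together. Neurofilament genes of large axons behaved alike: Nefl read 3.81, 4.67, 3.92 and 4.05 and Nefm 3.12, 4.10, 2.99 and 3.40. The median deviation of the 7 genes of cerebellar nuclei and large projection neurons on array 2 was 0.43, and 5 of 7 were highest there. Lhx9 went the other way and was lowest on array 2, at -1.55, -1.81, -1.12 and -1.03. Slc17a6 read 0.91, 1.29, 1.19 and 1.57, highest on array 4. Under median scaling, which shifts the median of all genes on array 2 to -0.21 and on array 3 to 0.38, 8 of 16 oligodendrocyte genes and 3 of 7 projection neuron genes were highest on array 2, against 6.01% of all genes. Granule and Purkinje cell genes lay on the other side, with median deviations of -0.20 and -0.20 on array 2. Of granule cell genes 11 of 15 were lowest there, and of Purkinje cell genes 11 of 16, against 28.0% of all genes. No member of the oligodendrocyte, projection neuron, granule or Purkinje lists had its array 2 spot in a raised area.

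**Figure D5:**
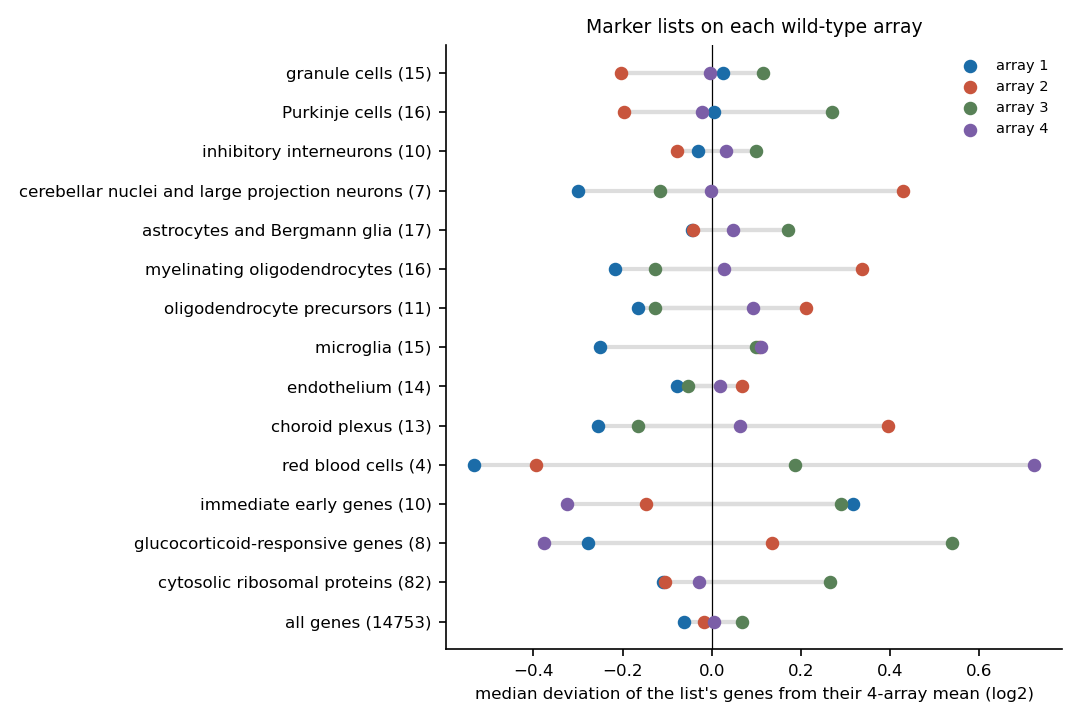
Median deviation of each list's genes from their 4-array mean (log2) on each wild-type array, over the members above background on 4 arrays (number beside each name). Oligodendrocyte, projection neuron and choroid plexus genes are highest on array 2, red blood cell genes on array 4 and glucocorticoid-responsive genes on array 3.

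Markers of neighbouring tissue did not share 1 order. Choroid plexus genes had a median deviation of 0.40 on array 2, and 11 of 13 were highest on it, against 22.0% of all genes. Under median scaling 5 of 13 were, against 6.01%. The summed level of the list was 28.4, 45.1, 32.8 and 34.0. Meningeal genes had a median deviation of 0.04 on array 2, where 1 of 11 was highest. On array 3, 8 of 11 were highest, against 45.1% of all genes. Their median deviation on array 3 was 0.15, or 0.06 relative to genes of like signal. The list of brainstem neighbours had 5 of 19 members above background on all 4 arrays. Of these, 2 were highest on array 2 and 3 on array 4, against 22.0% and 13.7% of all genes. The median deviations of the list there were 0.17 and 0.23. The summed level of its 19 members was 0.880, 3.22, 0.908 and 1.53. Its defining genes Chat and Hoxa2 were above background on no array. Hox genes, which mark the hindbrain behind the cerebellum and the spinal cord, gave 12 of 49 probes above background on array 2. On arrays 1, 3 and 4 they gave 5, 3 and 10. Of all probes, 53.9% were above background on array 2, and 66.8%, 63.2% and 67.8% on arrays 1, 3 and 4. Hoxb5 read -7.77, -0.12, -7.91 and -5.51, and Hoxb7 -7.97, -2.15, -8.05 and -8.20. Of 9 Hox probes above background on array 2 and not on arrays 1 or 3, 8 lay outside its raised areas, and 5 of these were also above background on array 4. The part of dissection in the oligodendrocyte and neurofilament values was not tested.

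In the list of the 25 most variable named genes, some were highest on array 2 with the spot outside a raised area. They were Creb3l3, Lamp5, Glra1, Isoc2b, Myh6, Mnd1 and Prph. As given above, Creb3l3, Isoc2b and Mnd1 were also high on another array. Myh6 read -4.36, -1.86, -4.96 and -3.97. Prph, a filament of motor and sensory neurons, read -3.41, -0.72, -3.49 and -2.68, and Glra1, a glycine receptor subunit of hindbrain and cord, -4.93, -1.70, -5.52 and -4.03. Lamp5, a membrane protein of neurons, read -2.66, 1.02, -2.37 and -0.83. Transmitter genes in the list of brainstem neighbours differed in their order. Slc5a7, the choline transporter, read -4.81, -1.90, -5.89 and -3.62, and was highest on array 2 and not above background on array 3. Slc6a4, the serotonin transporter, read -6.11, -3.93, -7.50 and -2.25, and Tph2, the enzyme of serotonin synthesis, -5.05, -4.82, -4.76 and -2.73, both highest on array 4. Slc6a4 was above background on array 4 only, and Tph2 on 3 arrays. The noradrenaline genes spread little: Th, the first enzyme of catecholamine synthesis, had an SD of 0.17, the transporter Slc6a2 0.18 and the enzyme Dbh 0.30.

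Microglial genes were low on array 1, where 12 of 15 were lowest against 35.7% of all genes, with median deviations of -0.25, 0.11, 0.10 and 0.11. Several other lists were also often lowest on array 1: 9 of 11 meningeal, 7 of 9 mural, 5 of 6 ependymal and 4 of 4 red blood cell genes. So were 8 of 14 endothelial, 10 of 16 oligodendrocyte, 6 of 11 oligodendrocyte precursor and 6 of 13 choroid plexus genes. Astrocyte and Bergmann glia genes did not share this, with 5 of 17 lowest on array 1. Their median deviation there relative to genes of like signal was 0.04. The receptor Csf1r, needed for microglial survival, read 0.23, 0.81, 0.90 and 0.82. Glucocorticoid-responsive genes were high on array 3, with a median deviation of 0.54, and 6 of 8 were highest there, against 45.1% of all genes. The metallothionein Mt2 read 6.02, 6.17, 6.91 and 6.04, and the kinase Sgk1 2.82, 3.27, 3.63 and 2.65. Fkbp5, a chaperone of the glucocorticoid receptor, has 3 probes that disagreed: the brightest read -2.26, -1.73, -2.72 and -4.05, and the next -3.06, -2.93, -2.39 and -2.48.

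Stress, clock and interferon genes were detected in nearly full number. All 12 clock genes were above background on all 4 arrays, with a median SD of 0.22. The clock output factor Dbp read 4.65, 4.57, 5.11 and 4.65, high on array 3, and the repressor Per2 -0.70, -0.90, -1.22 and -1.54, lowest on array 4 as Per1 was. All 6 heat shock genes were above background on all 4 arrays. The constitutive chaperone Hspa8 read 6.10, 6.26, 5.56 and 6.06, and the co-chaperone Dnajb1 3.96, 4.04, 4.42 and 3.98. Array 3 was thus lowest for Hspa8 and highest for Dnajb1. Of 12 interferon-stimulated genes 11 were above background on all 4 arrays. Rsad2, which encodes the antiviral protein viperin, read -3.74, -3.42, -2.76 and -2.01, and Isg15, a ubiquitin-like modifier, -2.48, -2.20, -2.55 and -2.41. Rsad2 was highest on array 4 and Isg15 on array 2, so the list had no shared order.

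Genes of the cerebellar territory, which pattern the hindbrain where the cerebellum forms, were above background on all 4 arrays for 6 of 9 members. The homeobox gene En2 read 4.00, 3.93, 4.32 and 4.17, while its relative En1 was above background on no array. Meis1, a homeobox cofactor, read -0.90, -0.91, -0.83 and -0.89, an SD of 0.04. All 6 detected members were lowest on array 2, against 28.0% of all genes, but 3 of 6 were when the 75th percentile was taken over spots above background on all 4 arrays.

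Genes above background on 1 to 3 arrays numbered 4702. Without array 2 the number was 2263. The largest bound belonged to Xist, the RNA that silences an X chromosome in females, at -7.81, 3.25, -5.74 and -7.99. It was above background on array 2 only, on each of its 4 probes, and at least 546-fold higher there. The bound sets the bright arrays against the higher, on each dim array, of the gene's own signal and the lowest signal of any probe above background there. Tsix, its antisense gene, read -7.69, -2.83, -7.77 and -7.90 and was also above background on array 2 only. The Y-linked genes Ddx3y and Kdm5d were above background on arrays 1, 3 and 4 and not on array 2. Ddx3y read 0.06, -5.91, 0.23 and 0.03, at least 16.1-fold higher on the 3 arrays. Eif2s3y, a Y-linked translation factor gene, read 0.07, -6.00, 0.09 and -8.05. It was thus not above background on array 4 either, where Ddx3y was. A probe annotated to its X-linked relative Eif2s3x read 0.27, -1.65, 0.32 and -1.98, the same order. Other Eif2s3x probes did not share it. The brightest, with its array 2 spot in a raised area, read 2.10, 2.63, 2.62 and 2.42, and another -1.83, -1.24, -2.07 and -2.09. The first of these probes matches the Eif2s3y probe at 21 of 55 bases in the best placement without gaps. The other Eif2s3x probes match it at 19 to 21 bases, so the match does not set that probe apart. Apol7c, a member of the apolipoprotein L family, read -2.17, -1.43, -0.61 and -7.93, at least 24.8-fold higher on arrays 1 to 3 than on array 4. Olfr784, Olfr891, Cpa4, Ptpn20, Slc22a22, Mageb1 and Vmn2r10 complete the 10 largest bounds, each above background on array 2 alone and each with its spot in a raised area. Without raised spots these 7 genes gave way to Ddx3y, Olfr1295, Hoxb7, Urad, Tnfsf4, Dcst1 and Olfr945, with bounds of at least 16.1-fold for Ddx3y and at least 9.47-fold for Olfr945. Of these, Olfr1295, Hoxb7, Urad, Tnfsf4 and Olfr945 were above background on array 2 alone.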

How the data were processed

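The deposited intensity values are processed one-colour signals, corrected for spatial and multiplicative trends within each array, per the file headers. The submitters' processing notes name Agilent Feature Extraction 9.5. Control spots were left out, outlier spots (87 to 115 per array) set to missing, log2 taken, the array's 75th percentile subtracted and spots of a probe averaged. The brightest probe stood for a gene. Names came from RefSeq (GRCm38.p6): 22951 probes by accession, 6659 by symbol, 3109 by synonym, and 8455 kept the files' name. The number of arrays limits the precision, and for dim genes so does the background of array 2. Named genes were the 25 brightest, 25 most and 10 least variable, 10 with the largest bound among partly detected genes with a value on all 4 arrays, and per list up to 4 by signal and 2 by SD. Members and lists were chosen with earlier results of these data known, and noncoding RNA and Hox groups after their values were seen. A spot was raised where at least 5 dark neighbours within 6 rows and 2 columns lay over 1 log2 unit above the array's dark level. The calculations were tested on simulated data. Python, numpy, pandas, matplotlib and limma 3.58.1 in R 4.3.3 (normexp) were used. Npc1-/- and Illumina arrays were not used here. Some genes counted in the lists are not reported here by name.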

Additional observations from a re-analysis of the deposited data

Results flagged for a closer look

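A gene, list or array measure is given here where 1 of the 4 arrays lay far from the other 3, by a ratio of the gap to the whole range above Dixon's critical value for 4 samples. This held for 20 of 207 named genes (9.66%), many of them named for their spread, and for 4.79% of all genes above background on 4 arrays, close to the rate set by the critical value. Chance alone therefore gives such cases at about that rate.

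Of the 20 genes, 17 were apart on array 2, and 15 of these had the spot in a raised area. The ratios were 0.982 for Gcnt2, 0.967 for Olfr784, 0.963 for Ptpn20, 0.963 for Vmn2r10, 0.959 for Slc22a22, 0.959 for Cdh5, 0.957 for Mageb1, 0.909 for Liph, 0.906 for Cxcr4, 0.896 for Fcna, 0.883 for Neurod6, 0.874 for Rbm11, 0.857 for Cpa4, 0.850 for Ldb3 and 0.835 for Irf7. Ifit1 (0.858), an interferon-stimulated gene, was apart with its spot outside the raised areas. On array 3 the chaperone Hspa5 (0.933) and the clock output gene Dbp (0.862) were highest. On array 1 Csf1r (0.860) was lowest.

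Of 29 lists, 2 were apart. Microglia were lowest on array 1 (0.972), and granule cell precursors highest on array 3 (0.840), where the median deviation was 0.09, or 0.046 relative to genes of like signal. Array 2 was highest in the size of its spatial trend (0.990), the SD of its negative controls (0.948) and the level of its dark spots (0.919).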

How the results depend on the processing

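No paired analysis was possible because the arrays form 1 group and no test was made. Of 230 values recomputed for the main results, 210 kept their direction and stayed within 1.5 times or 1 SD. The count of genes with an SD over 0.5 was 624 with normexp, 2557 with genes above background on at least 2 arrays and 11559 with no filter, where dim genes are added. Of the 25 most variable genes, 14 were shared with normexp, 12 with the mean over all probes, 1 with at least 2 arrays, 0 with no filter, 6 with the SD relative to genes of like signal, 7 within the scan day of 3 arrays, 11 without raised spots and 0 with the ranking over 2 or more probes (the last 2 were added after seeing the data); leaving out each array in turn gave 7 (array 2) to 23 (array 4). Of the 25 brightest, 15 were shared with the mean over all probes. Median scaling moved the median of all genes to -0.20, -0.21, 0.38 and 0.02 on arrays 1 to 4, and with it Purkinje cells to 0.58 and ribosomal proteins to 0.58 on array 3 and granule cells to -0.39 on array 2. Olfactory receptors on array 2 turned from 0.35 to -0.013 with at least 2 arrays. Leaving out each array in turn gave 2263 (array 2) to 4508 partly detected genes and a lowest r of 0.976 to 0.986 (array 3). The deviation of Fkbp5 on array 4 ran from -1.38 to 0.16 and turned to 0.12 and 0.16 without array 1 or 2, where another probe is the brightest. Dim genes are limited by array 2, whose lowest signal above background was -3.90, against -6.04 to -5.74 on the others. The cause of these changes was not tested, other than where fewer genes, probes or arrays entered.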
